A study of Mus musculus with 12 samples.

Results

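The genes described here are 48 mouse genes of fatty acid and triglyceride metabolism, listed by symbol, and every array probe annotated to them was taken. Of the 48 genes 47 had a probe and 43 could be tested, out of 19057 genes with a probe and 11278 genes tested in all. RNA came from NSC-34 cells, a line made by fusing neuroblastoma cells with motor neurons of the mouse spinal cord, and was measured on Illumina BeadChips for the whole mouse genome. NSC-34/shPGRN cells, called shPGRN cells below, carry a short hairpin RNA against mouse progranulin (PGRN), in a vector selected with puromycin. NSC-34/hPGRN cells, or hPGRN cells, overexpress human PGRN from a vector selected with G418. The control cells are vector controls, and no source used here says which vector the cells on the arrays carry. Each line was measured on 4 arrays, and all cells spent the last 24 h before lysis in medium with 1% serum. Each line is a stable line sub-cultured into 4 flasks, so the p-values measure the spread between flasks of a line, and an effect of PGRN cannot be told apart from one of vector, drug selection or the line itself.

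Cells make long-chain fatty acids from cytosolic acetyl-CoA, which ATP citrate lyase provides, through acetyl-CoA carboxylase and fatty acid synthase. Elongases lengthen the chains and desaturases put double bonds into them, and long-chain acyl-CoA synthetases couple free fatty acids to coenzyme A, without which they can be neither esterified nor oxidized. Acyl groups are then built stepwise onto glycerol to give phospholipids and triglycerides, triglycerides are stored in lipid droplets and released by lipases, or the acyl groups pass through the carnitine shuttle into mitochondria for beta-oxidation. Neurons hold few droplets but need polyunsaturated acyl chains for their membranes.

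More members were called between shPGRN and hPGRN cells than in either comparison with control cells. Of the 11 members lower in shPGRN than in hPGRN cells, 6 were desaturases and elongases or acyl-CoA synthetases. These 2 roles hold 9 and 4 of the 43 tested members. Among the 6, Fads2 kept its call in 6 of 21 alternative fits, and Acsl3 and Acsl6 in 14 each. In shPGRN against hPGRN cells 11 of the 43 tested members were lower and 4 higher, 25.6% and 9.3%, where 7.09% of all tested genes were lower and 6.75% higher. The members were chosen with earlier results of these data known, so these shares are a description and not a test. A gene counts as lower or higher where limma, fitted over all genes, gives an adjusted p under 0.05. The median log2 fold change was -0.16 over the members and 0.00 over all genes. Against control cells, shPGRN cells had 3 members lower and 1 higher (6.98% and 2.33%), against 6.85% lower and 7.32% higher among all genes, so that these counts lay near or below the background. In hPGRN against control cells no member was lower and 2 were higher (4.65%), against 3.22% lower and 3.72% higher among all genes. Before adjustment, 1 member was lower there at p under 0.05 in limma, and none was after adjustment without variance moderation. At an adjusted p under 0.05 and at least 1.5-fold, no member was called in any comparison, where 2.42% of all genes were called in shPGRN against hPGRN cells, 2.46% in shPGRN against control cells and 1.02% in hPGRN against control cells. The same holds for limma at an unadjusted p under 0.05 and for least squares without variance moderation. This count depends on the offset of 50 that the normalization adds to each intensity before logs are taken. With an offset of 16, Gpat3 (-0.64 on the log2 scale) and Fabp3 (-0.60) were past 1.5-fold in shPGRN against hPGRN cells. A floor of 16 under the deposited values was also tried, with neither normexp correction nor quantile normalization. It put 5 members past 1.5-fold there, Fabp3 (-1.12), Mgll (0.97), Gpat3 (-0.97), Plin3 (0.64) and Acsl4 (-0.61). As plain ratios of mean intensity, shPGRN cells had 45.9% of the hPGRN value for Fabp3, 50.8% for Gpat3 and 201% for Mgll. The comparisons share arrays, so their counts are not independent of each other. In bulk RNA, fewer cells that express a gene and less RNA per cell cannot be told apart.

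**Figure D1:**
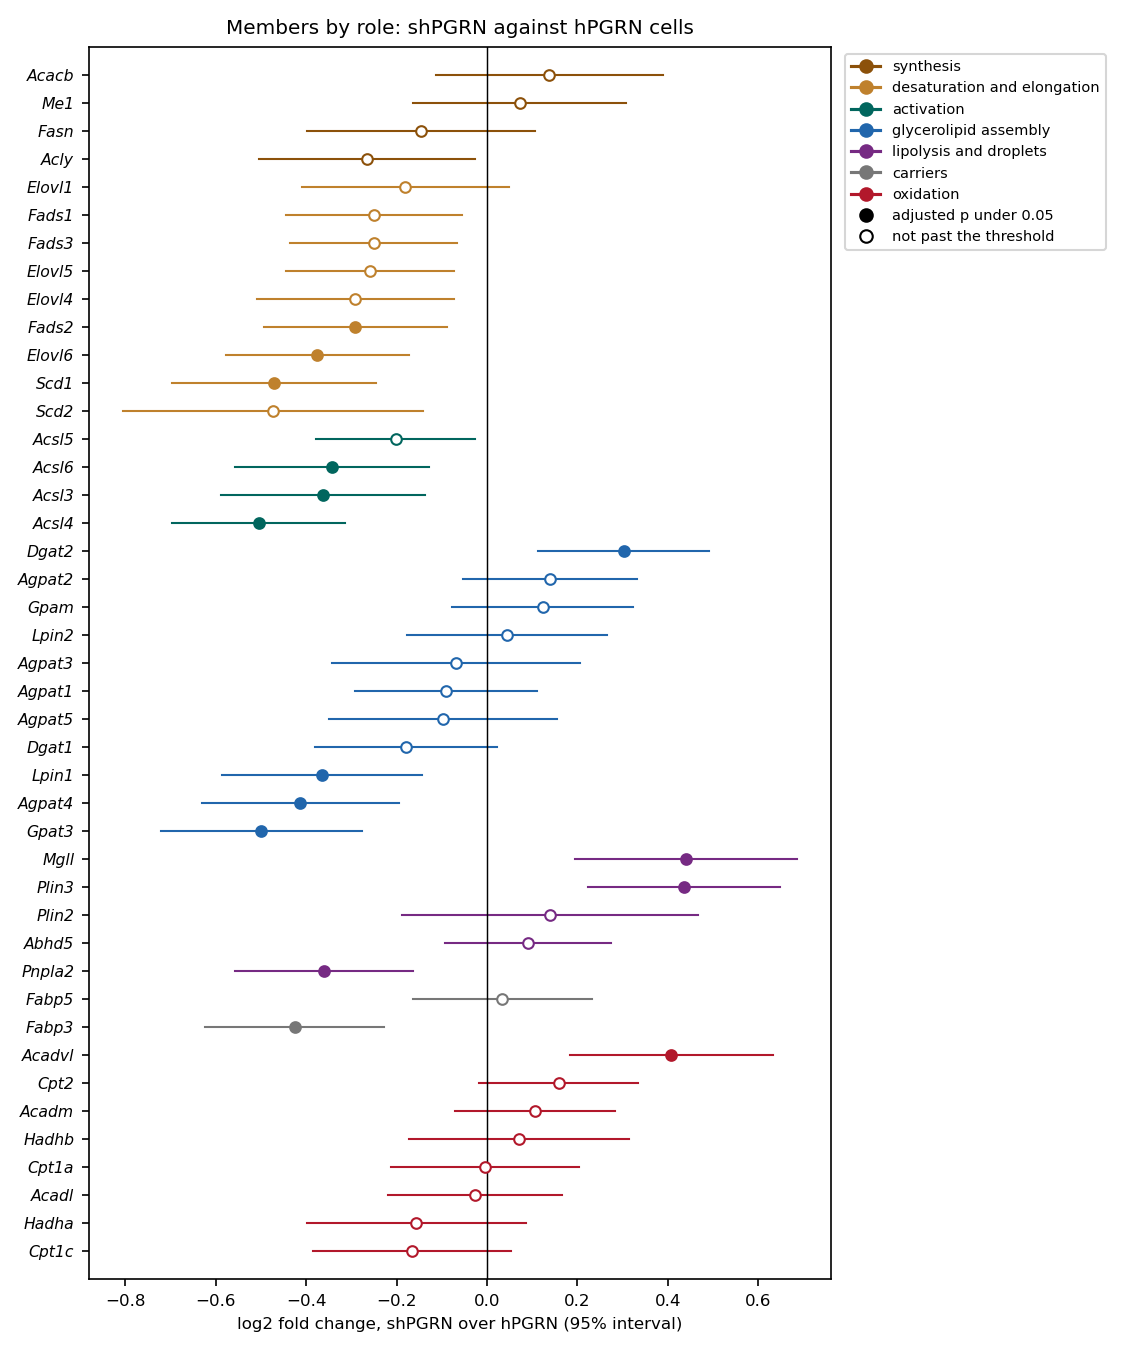
Log2 fold change of each of the 43 tested members, shPGRN over hPGRN cells (horizontal axis), with its 95% interval, grouped and coloured by role, and filled where the limma adjusted p was under 0.05. All 9 desaturases and elongases and all 4 acyl-CoA synthetases lie left of 0, while the 8 oxidation genes lie on both sides of it.

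Intensities below are the deposited values, some of them negative, given for each array in the order of the replicate number. A fold change is the difference of normalized log2 values. The normalization adds an offset that shrinks fold changes of dim probes, so that a fold change can be smaller than the ratio of the intensities beside it. Probe intensities are compared only between arrays, never between genes. Mouse Grn, the gene that encodes PGRN and the target of the hairpin, was at 646, 635, 665 and 502 in shPGRN cells, at 922, 1273, 1043 and 956 in hPGRN cells and at 896, 899, 811 and 942 in control cells, and so was lower on every shPGRN array than on any other. The number of probes above background was alike on all arrays, from 19248 to 19701. Of 11 motor neuron and cholinergic markers with a probe, Isl1, Nefm and Prph were above background on all 12 arrays, and Chat, Slc5a7, Ache, Mnx1 and Nefl passed the filter on no probe. Isl1, a transcription factor of motor neurons, was lower in shPGRN than in hPGRN cells (log2 fold change -0.52, limma adjusted p = 0.000722), higher in shPGRN than in control cells (0.51, adjusted p = 0.000871) and higher in hPGRN than in control cells (1.03, adjusted p = 2.26e-07). Slc18a3, the vesicular acetylcholine transporter, is dim, and was lower in shPGRN than in hPGRN cells (-0.31, limma adjusted p = 0.0305) and than in control cells (-0.51, adjusted p = 0.000631). No other marker of these 11 was called, and their summed intensity was 10235 to 10984 on shPGRN arrays, 11239 to 12227 on hPGRN arrays and 8364 to 10076 on control arrays. Of 6 adipocyte markers with a probe only Adipoq and Lep passed that filter and none was called in any comparison. The summed intensity of these 6 was 2.86 to 24.3 on shPGRN arrays, 11.5 to 49.5 on hPGRN arrays and -11.7 to 45.2 on control arrays, near the background limit of a single probe, 12.0 to 12.7. Of 6 astrocyte and radial glia markers, Gfap, Aqp4, Aldh1l1 and Slc1a3 did not pass the filter, and the other 2 differed in direction. Sox9, also a marker of neural crest derivatives, was higher in shPGRN cells than in hPGRN cells (log2 fold change 0.39, limma adjusted p = 0.00827) and than in control cells (log2 fold change 0.63, limma adjusted p = 9.08e-05), while Slc1a2, the glial glutamate transporter, had a log2 fold change of -0.07 against hPGRN cells (adjusted p = 0.741) and was lower than in control cells both in shPGRN cells (-0.67, limma adjusted p = 6.28e-05) and in hPGRN cells (-0.60, adjusted p = 0.000535). The summed intensity of the 6 was 1243 to 1502 on shPGRN arrays, 938 to 1172 on hPGRN arrays and 881 to 1071 on control arrays. Markers of oligodendrocytes and Schwann cells, macrophages, fibroblasts and hepatocytes were examined too, and only Pmp22 and Ttr were called. Pmp22, of the first set, was higher than in control cells in shPGRN (0.66, limma adjusted p = 0.000326) and in hPGRN cells (0.89, adjusted p = 2.24e-05). Ttr, of the last, was higher in shPGRN than in hPGRN cells (0.79, adjusted p = 3.62e-05) and lower in hPGRN than in control cells (-0.95, adjusted p = 7.77e-06). The part of these markers in the results below was not tested.

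Of the 4 measured long-chain acyl-CoA synthetases, the enzymes that activate fatty acids, Acsl3, Acsl4 and Acsl6 were lower in shPGRN cells in both comparisons. These are the only 3 members lower against control cells, 6.98% of those tested, where 6.85% of all tested genes were lower. Acsl1, the main synthetase of fat and liver, had no probe. Promoter windows of these 3 genes, 250 bases before to 50 bases after the annotated start, are shown because they are the members that were lower against both other lines. They are from RefSeq on GRCm38.p6 and run 5′ to 3′ on the strand of the gene, with CCAAT boxes in capitals.
Acsl3, chr1:78657575-78657874, plus strand: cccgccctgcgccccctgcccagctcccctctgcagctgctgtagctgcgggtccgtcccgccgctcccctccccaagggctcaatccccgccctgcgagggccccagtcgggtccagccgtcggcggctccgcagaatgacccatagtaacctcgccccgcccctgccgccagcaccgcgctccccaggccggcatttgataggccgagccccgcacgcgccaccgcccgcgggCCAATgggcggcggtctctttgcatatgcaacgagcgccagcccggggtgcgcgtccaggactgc
Acsl4, chrX:142390486-142390785, minus strand: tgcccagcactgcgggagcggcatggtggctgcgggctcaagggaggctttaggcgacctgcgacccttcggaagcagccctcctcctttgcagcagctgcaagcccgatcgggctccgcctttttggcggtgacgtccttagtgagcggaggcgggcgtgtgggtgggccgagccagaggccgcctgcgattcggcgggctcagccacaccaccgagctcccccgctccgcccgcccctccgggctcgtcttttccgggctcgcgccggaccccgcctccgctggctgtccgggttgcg
Acsl6, chr11:54303574-54303873, plus strand: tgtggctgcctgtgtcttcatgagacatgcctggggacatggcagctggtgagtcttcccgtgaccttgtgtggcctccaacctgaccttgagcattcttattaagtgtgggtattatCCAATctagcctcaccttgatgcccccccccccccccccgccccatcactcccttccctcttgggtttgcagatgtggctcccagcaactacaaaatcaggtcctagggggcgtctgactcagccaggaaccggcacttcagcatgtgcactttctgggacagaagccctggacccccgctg
Acsl6 has 2 more annotated windows, at chr11:54303954-54304253 and chr11:54314653-54314952, with no CCAAT box in the first of these and 2 in the other. The windows shown hold 1 CCAAT box in Acsl3, none in Acsl4 and 1 in Acsl6. None of the 5 windows of the 3 genes holds the letters TCACNCCAC of a sterol regulatory element or the E-box CACGTG on either strand. Among the 41 members found in the RefSeq promoter table, 51.2% had a CCAAT box on either strand in at least 1 window, against 41.1% of all genes there. The sterol regulatory element was found in 1 member, the Acsl1 gene (2.44%), against 1.44% of all genes, and the E-box in 17.1% of the members, against 8.09% of all genes. Such matches are a description of the letters and say nothing of binding in these cells.

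Acsl4, which prefers arachidonic acid and other polyunsaturated fatty acids, was at 329, 274, 259 and 269.8 in shPGRN cells, at 481, 383, 442 and 419.8 in hPGRN cells and at 411, 373, 410.1 and 429 in control cells. Every shPGRN array lay below every array of the other lines, and the other lines overlapped. Acsl4 was lower in shPGRN than in hPGRN cells (log2 fold change -0.51, SE 0.09, limma adjusted p = 0.000562) and than in control cells (log2 fold change -0.43, SE 0.09, limma adjusted p = 0.00249). Between hPGRN and control cells the threshold was not passed, with an interval of the log2 fold change of -0.12 to 0.27.

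Acsl6, the synthetase of brain that channels docosahexaenoic acid into neuronal membranes, was at 370.0, 481, 439 and 437 in shPGRN cells, at 569, 521, 653 and 526 in hPGRN cells and at 605, 715, 807 and 616 in control cells. The shPGRN arrays were again the 4 lowest. The fold change against control cells was the largest among the members in any comparison and fell just short of 1.5-fold (log2 fold change -0.58, SE 0.10, limma adjusted p = 0.000412), and against hPGRN cells it was smaller (log2 fold change -0.34, SE 0.10, limma adjusted p = 0.0287). The call against hPGRN cells was lost without shPGRN replicate 1 or 3 or hPGRN replicate 1 or 3, at adjusted p of 0.0520 to 0.106, and that against control cells was kept without any single array. Against control cells Acsl6 was past 1.5-fold, at -0.59 to -0.64 on the log2 scale, without shPGRN replicate 2, 3 or 4 or control replicate 1 or 4. Its rank among the members depends on the offset, which shrinks dim probes. With a floor of 16 Acsl6 was at -0.66 against control cells. Fabp3 (-1.12), Mgll (0.97) and Gpat3 (-0.97) then had larger changes in shPGRN against hPGRN cells.

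Acsl3, a synthetase of the endoplasmic reticulum and of lipid droplet surfaces, was at 532, 497, 525 and 373 in shPGRN cells, at 537, 669, 673 and 669 in hPGRN cells and at 707, 707, 561 and 639.8 in control cells. The lines did not overlap with shPGRN cells, though the highest shPGRN array nearly met hPGRN replicate 1, which lay apart from the 3 others of its line. Acsl3 was lower than in hPGRN cells (log2 fold change -0.36, SE 0.11, limma adjusted p = 0.0279) and than in control cells (log2 fold change -0.40, SE 0.11, limma adjusted p = 0.0161). Against hPGRN cells the call was lost without shPGRN replicate 4 or hPGRN replicate 2, 3 or 4 (adjusted p of 0.0745 to 0.117), and against control cells without shPGRN replicate 4 (adjusted p = 0.0691) or control replicate 1 (adjusted p = 0.0516).

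Acsl5, a synthetase linked to triglyceride synthesis in intestine and liver, had the same order of lines, at 3524, 3233, 3604 and 3703 in shPGRN cells, at 3922, 3865, 4294 and 4133 in hPGRN cells and at 3984, 4197, 4274 and 3967 in control cells. No shPGRN array reached the lowest array of the other lines, but neither comparison passed the threshold (log2 fold change -0.20 with adjusted p = 0.124 against hPGRN cells, and -0.22 with adjusted p = 0.0874 against control cells).

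These synthetases carry several probes each, and the calls above rest on the probe with the highest mean of each gene. All 12 kept probes of the 4 genes had a log2 fold change below 0 in shPGRN against hPGRN cells, from -0.51 to -0.15, and 5 of the 12 were called when each kept probe was tested on its own. Against control cells all 12 were below 0 too, from -0.58 to -0.02, and 5 were called. Probes of 1 gene on the same arrays are not independent, so these 12 stand for 4 genes. The share of all kept probes that was called was not counted. For Acsl6 the other 2 kept probes were at -0.17 (adjusted p = 0.300) and -0.05 (adjusted p = 0.867) against control cells. Both are dim, averaging 42.2 and 20.9 in shPGRN cells against 432 for the probe shown, so the offset shrinks their fold changes. How much of the difference between probes comes from this was not tested. For Acsl4 the other 3 probes were between -0.33 and -0.19 against hPGRN cells, the first of these called (adjusted p = 0.0328), and between -0.19 and -0.02 with none called against control cells. These 3 probes are dim too, averaging 50.2, 22.5 and 32.9 in shPGRN cells against 283 for the Acsl4 probe shown. The second probe of Acsl3 averaged 20.6 in shPGRN cells and was at -0.15 (adjusted p = 0.422) against hPGRN cells. For Acsl5 a probe other than the one shown above was called in both comparisons, at -0.44 each (adjusted p = 0.0360 against hPGRN cells and 0.0350 against control cells), and a further one against control cells alone (-0.32, adjusted p = 0.0322). Which transcripts the probes of a gene detect was not examined here.

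**Figure D2:**
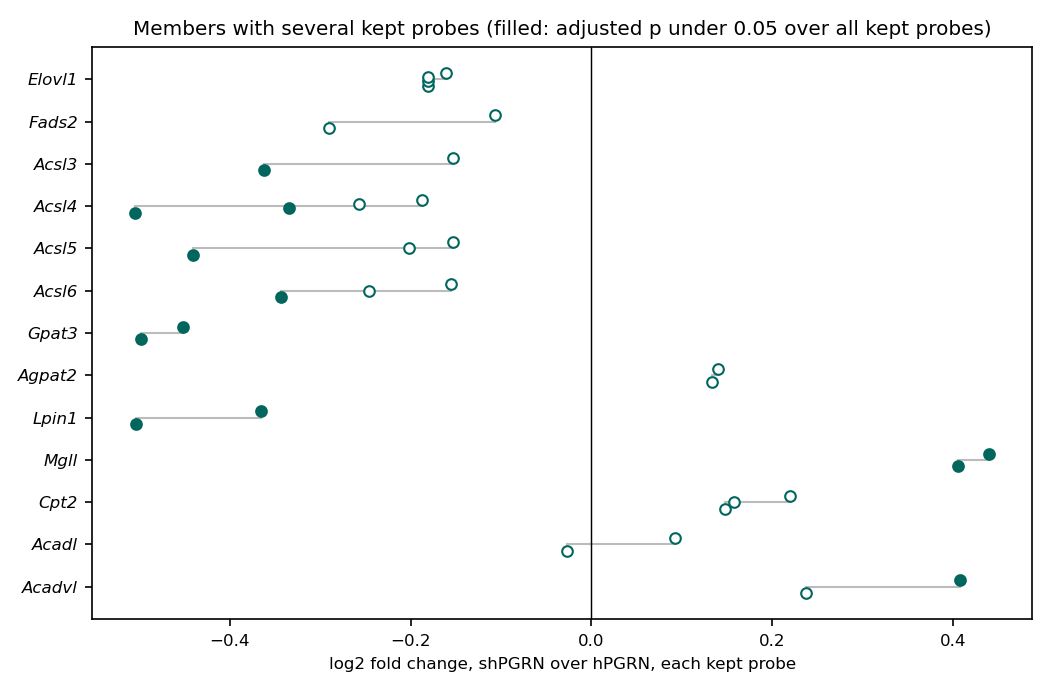
Log2 fold change of every kept probe of the 13 members with several kept probes, shPGRN over hPGRN cells (horizontal axis), filled where the limma adjusted p over all kept probes was under 0.05. In 12 of the 13 genes all probes lie on the same side of 0, the exception being Acadl, and the probes of Acsl3, Acsl4, Acsl5 and Acsl6 differ in size but not in sign. The offset shrinks the fold changes of dim probes more than those of bright ones.

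In desaturation and elongation all 9 members were measured, and all 9 had a log2 fold change below 0 in shPGRN against hPGRN cells, from -0.47 to -0.18 with a median of -0.29. Of these 3 were called lower (33.3%), where 7.09% of all tested genes were. In 7 of the 9 no shPGRN array overlapped with hPGRN cells, and how many of all tested genes show this was not counted. All 13 kept probes of the 9 genes were below 0. Against control cells the 9 were also below 0, from -0.30 to -0.10, with none called on the probe that stands for the gene, and in hPGRN against control cells 8 of 9 were above 0, with none called.

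Scd1, a stearoyl-CoA desaturase that makes monounsaturated fatty acids, was at 1379, 1561, 1619 and 1269 in shPGRN cells, at 1791, 2074, 1887 and 2465 in hPGRN cells and at 1936, 1621, 1755 and 1518 in control cells. The shPGRN arrays lay below all hPGRN arrays (log2 fold change -0.47, SE 0.11, limma adjusted p = 0.00459), and control cells overlapped with both. Scd2, the stearoyl-CoA desaturase most known from brain, was at 1416, 1558, 1597 and 1746 in shPGRN cells, at 2292, 2365, 1776 and 2502 in hPGRN cells and at 2661, 1452, 2076 and 1240.0 in control cells. The first 2 lines did not overlap, but the control arrays spread over the range of both, and the difference just missed the threshold (log2 fold change -0.47, SE 0.16, limma adjusted p = 0.0513). Scd1 and Scd2 are close paralogs, and whether their probes bind both transcripts was not tested.

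Elovl6, the elongase that takes palmitate to stearate, was at 544, 546, 709 and 535 in shPGRN cells, at 723, 825, 735 and 813 in hPGRN cells and at 719.9, 683, 774 and 638 in control cells. It was lower in shPGRN than in hPGRN cells (log2 fold change -0.37, SE 0.10, limma adjusted p = 0.0114), with the highest shPGRN array, replicate 3, apart from the others and close to the hPGRN range. Against control cells the difference did not pass the threshold (log2 fold change -0.25, adjusted p = 0.0941). Fads2, the delta-6 desaturase that opens the route to long polyunsaturated fatty acids, was at 561, 524, 606 and 555 in shPGRN cells, at 761, 671, 752 and 634 in hPGRN cells and at 797, 584, 668 and 720.4 in control cells. It lay just inside the threshold against hPGRN cells (log2 fold change -0.29, SE 0.10, limma adjusted p = 0.0494), the call held without hPGRN replicate 4 but not without any of the other 7 arrays compared (adjusted p of 0.0538 to 0.131), and its second probe was at -0.11 (adjusted p = 0.571). Against control cells the second probe was called lower in shPGRN cells (-0.31, adjusted p = 0.0413) and the first was not (-0.26, adjusted p = 0.0899 among all kept probes).

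Of the 5 remaining desaturases and elongases, Elovl5, Fads1, Fads3 and Elovl4 lay just outside the threshold and Elovl1 well outside it. Elovl5, which lengthens polyunsaturated chains, averaged 3881 ± 273 in shPGRN cells, 4653 ± 225 in hPGRN cells and 4166 ± 299 in control cells (SD, n = 4 arrays each), a log2 fold change of -0.26 against hPGRN cells (adjusted p = 0.0565). Fads1, the delta-5 desaturase, averaged 9067 ± 316 in shPGRN cells, 10856 ± 1398 in hPGRN cells and 10110.2 ± 353 in control cells (-0.25 on the log2 scale against hPGRN cells, adjusted p = 0.0836). Fads1, Fads2 and Fads3 are neighbouring genes, and the arrays of shPGRN and hPGRN cells did not overlap in any of the 3. Fads3, which desaturates sphingoid bases, was at 89.9, 95.4, 92.5 and 92.0 in shPGRN cells, at 127, 139, 111 and 119 in hPGRN cells and at 131, 93.4, 112 and 97.9 in control cells, with adjusted p = 0.0656 for the first 2. Elovl4, the elongase of very long chains in retina, skin and brain, was the member of this role nearest to the threshold against control cells, at 272, 296, 269.5 and 318 in shPGRN cells, 430.3, 302, 415 and 341 in hPGRN cells and 320.4, 361, 432 and 384 in control cells (log2 fold change -0.30, adjusted p = 0.0564 against control cells). Elovl1, which lengthens saturated chains, had the smallest log2 fold change of the role against hPGRN cells (-0.18, interval -0.41 to 0.05, adjusted p = 0.325), and its 4 kept probes fell between -0.18 and -0.16.

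**Figure D3:**
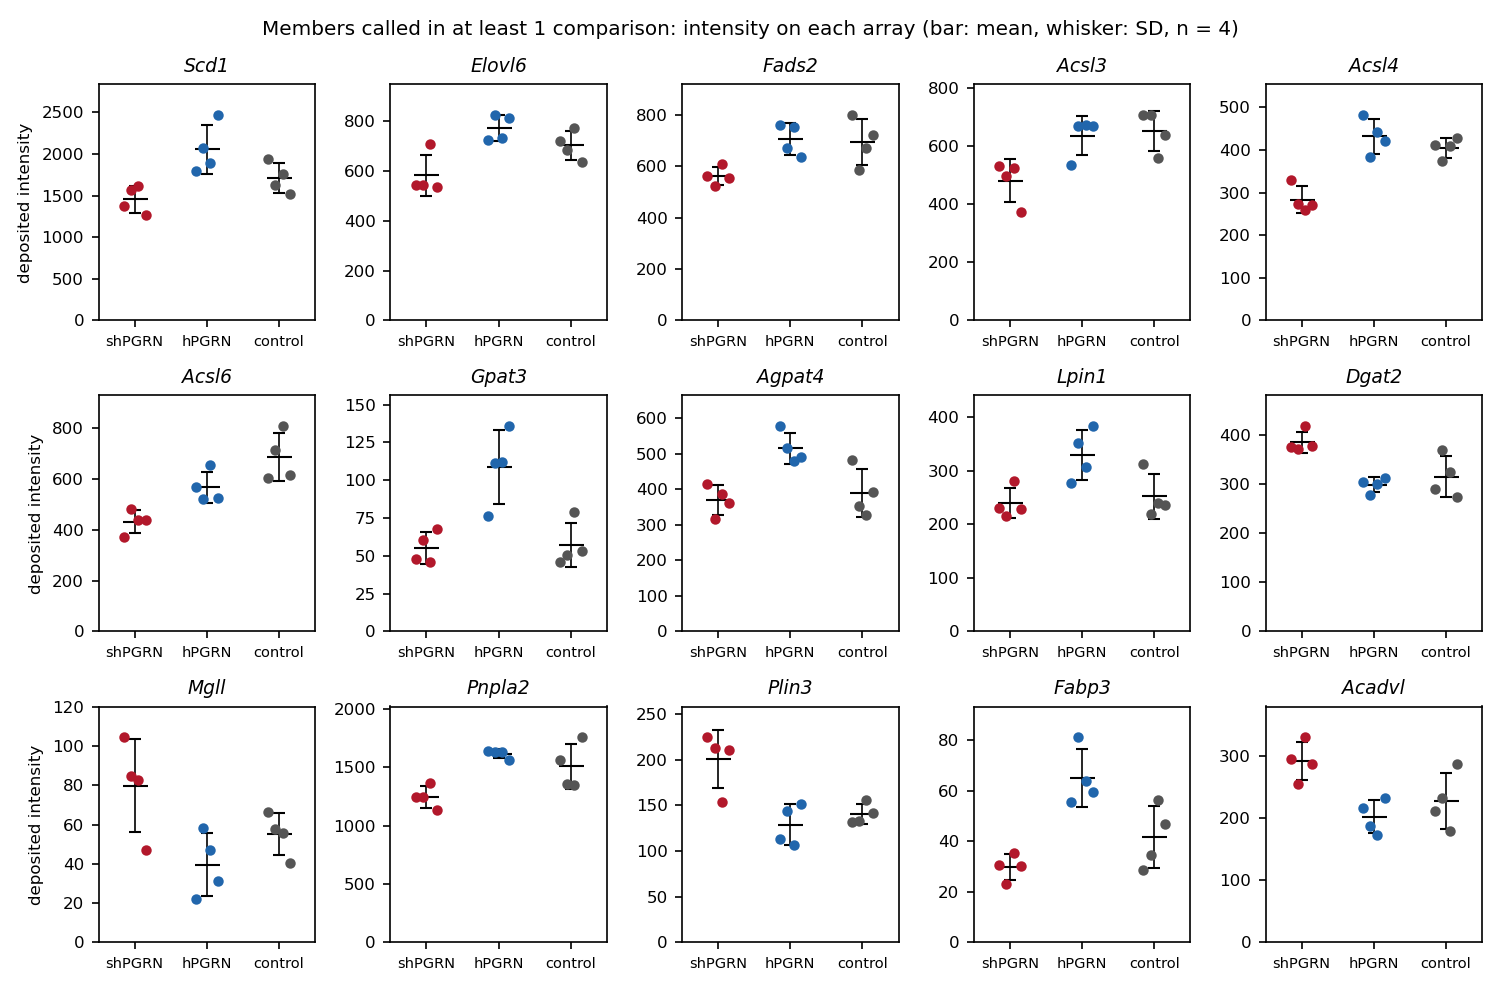
Deposited intensity (vertical axis, from 0) on each array for the 15 members called in at least 1 comparison, with shPGRN arrays at the left, hPGRN arrays in the middle and control arrays at the right of each panel; bars are means and whiskers SDs of 4 arrays. In Acsl3, Acsl4 and Acsl6 the shPGRN arrays lie below both other lines, and in Gpat3 the hPGRN arrays lie above most arrays of both others.

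De novo synthesis gave no called member in limma, and at an unadjusted p under 0.05 only Acly, in shPGRN against hPGRN cells. Of its 5 genes Acaca, the cytosolic acetyl-CoA carboxylase, was not above background on any array and was not tested. Fasn, fatty acid synthase, has a single probe that was above background on 1 shPGRN, 3 hPGRN and 2 control arrays and never above an intensity of 33.8, so these data hold almost no information on it. Acly, ATP citrate lyase, was at 9897, 7940.4, 9665 and 7866 in shPGRN cells, at 9324, 11767, 9245 and 12345 in hPGRN cells and at 10036, 8175, 9968 and 8209 in control cells. Replicates 2 and 4 of hPGRN cells were the highest and replicates 1 and 3 lay among the other lines, and no comparison passed the threshold (adjusted p = 0.14 for shPGRN against hPGRN cells, with an interval of the log2 fold change of -0.50 to -0.03). Acacb, the mitochondrial carboxylase that restrains oxidation, and Me1, the malic enzyme that supplies NADPH, had log2 fold changes of 0.14 and 0.07 in the same comparison, with intervals of -0.11 to 0.39 and -0.16 to 0.31.

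In glycerolipid assembly 11 of 12 members were tested. Against hPGRN cells, shPGRN cells had 3 lower and 1 higher (27.3% and 9.09%), where 7.09% and 6.75% of all tested genes were. Of the 3 lower ones Gpat3 and Agpat4 were also called higher in hPGRN than in control cells. Lpin1 was not, and none of the 3 was called in shPGRN against control cells. Gpat3, the glycerol-3-phosphate acyltransferase that starts the pathway in the endoplasmic reticulum, was at 47.8, 60.1, 45.6 and 67.6 in shPGRN cells, at 76.2, 111, 112 and 136 in hPGRN cells and at 46.0, 50.5, 78.8 and 53.3 in control cells. All hPGRN arrays exceeded all shPGRN arrays, and control replicate 3 just exceeded the lowest hPGRN array. Gpat3 was higher in hPGRN than in control cells (log2 fold change 0.48, SE 0.11, limma adjusted p = 0.00724) and lower in shPGRN than in hPGRN cells (log2 fold change -0.50, SE 0.11, limma adjusted p = 0.00263), while shPGRN against control cells gave a log2 fold change of -0.02 (interval -0.24 to 0.20). Without hPGRN replicate 1, the lowest of its line, Gpat3 was past 1.5-fold in shPGRN against hPGRN cells (-0.59). The second Gpat3 probe was called in the same comparisons, at 0.42 for hPGRN against control cells (adjusted p = 0.0187) and -0.45 for shPGRN against hPGRN cells (adjusted p = 0.00602). With an offset of 16 in place of 50 the fold change of Gpat3 in hPGRN against control cells was past 1.5-fold, at 0.62 on the log2 scale (adjusted p = 0.0202), and with deposited values raised to a floor of 16 it was 0.93 (adjusted p = 0.0267).

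Agpat4, an acylglycerophosphate acyltransferase of the next step, known from brain, was at 415, 316, 386 and 362 in shPGRN cells, at 577, 515, 479 and 491 in hPGRN cells and at 483, 354, 327 and 392 in control cells. The hPGRN arrays lay above all shPGRN arrays (log2 fold change -0.41, SE 0.11, limma adjusted p = 0.00998 for shPGRN against hPGRN cells), and only control replicate 1 reached them (log2 fold change 0.36, SE 0.11, limma adjusted p = 0.0411 for hPGRN against control cells). The call against control cells was kept in 8 of 21 alternatives and was lost without any 1 hPGRN array or without control replicate 2, 3 or 4 (adjusted p of 0.0543 to 0.153). Lpin1, a phosphatidate phosphatase that makes diacylglycerol, was at 232, 217, 281 and 229 in shPGRN cells, at 277, 352, 308 and 383 in hPGRN cells and at 314, 220.0, 239.9 and 236 in control cells. shPGRN and hPGRN cells overlapped by 1 array (log2 fold change -0.37, SE 0.11, limma adjusted p = 0.0235). This call was lost without shPGRN replicate 1, 2 or 4 or hPGRN replicate 2 or 4 (adjusted p of 0.0552 to 0.0962). A second Lpin1 probe was at -0.50 (adjusted p = 0.0151) in that comparison and at 0.49 (adjusted p = 0.0313) in hPGRN against control cells, where the probe above was at 0.31 (adjusted p = 0.0843).

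Dgat2, which adds the last acyl chain of a triglyceride, went the other way, at 375, 371, 418 and 377 in shPGRN cells, at 304, 278, 301 and 313 in hPGRN cells and at 291, 369, 326 and 274 in control cells. It was higher in shPGRN than in hPGRN cells (log2 fold change 0.30, SE 0.09, limma adjusted p = 0.0289), and although each shPGRN array also exceeded each control array, that difference did not pass the threshold (adjusted p = 0.0761). The call was lost without shPGRN replicate 1 or 3 or hPGRN replicate 2 or 3 (adjusted p of 0.0504 to 0.0905). Dgat1, the other enzyme of that step, was at 24.4 to 60.7 in shPGRN cells, 54.6 to 71.0 in hPGRN cells and 59.1 to 71.8 in control cells, with a log2 fold change of -0.18 against hPGRN cells (interval -0.38 to 0.02). The 6 remaining tested members, Gpam, the mitochondrial glycerol-3-phosphate acyltransferase, Agpat1, Agpat2, Agpat3 and Agpat5, acyltransferases like Agpat4, and Lpin2, a phosphatase like Lpin1, were not called in any comparison, with log2 fold changes of -0.10 to 0.14 between shPGRN and hPGRN cells. Lpin3, the third lipin, was not above background on any array.

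Among the 6 lipolysis and droplet genes 5 were tested, and the lipases did not move together. Pnpla2, adipose triglyceride lipase, which takes the first acyl chain off a stored triglyceride, was at 1240.0, 1243, 1364 and 1129.7 in shPGRN cells, at 1638, 1628, 1632 and 1561 in hPGRN cells and at 1559.5, 1359, 1348 and 1755 in control cells. It was lower in shPGRN than in hPGRN cells without overlap (log2 fold change -0.36, SE 0.10, limma adjusted p = 0.0123) and not past the threshold against control cells (-0.26, adjusted p = 0.0761). Mgll, monoacylglycerol lipase, which takes off the last chain and in brain breaks down the endocannabinoid 2-AG, was at 104, 85.0, 82.8 and 47.2 in shPGRN cells, at 22.0, 58.2, 47.0 and 31.5 in hPGRN cells and at 66.4, 57.8, 55.7 and 40.7 in control cells. Its shPGRN arrays were higher apart from replicate 4, which lay within the hPGRN range (log2 fold change 0.44, SE 0.12, limma adjusted p = 0.0139). A second Mgll probe was at 0.41 (adjusted p = 0.00916), and the call was lost without shPGRN replicate 1 (adjusted p = 0.0608) or hPGRN replicate 1 (adjusted p = 0.0617). With deposited values raised to a floor of 16 the fold change of Mgll was 0.97 on the log2 scale.

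Plin3, a perilipin that coats small and new droplets, was at 225, 213, 153 and 210.2 in shPGRN cells, at 114, 144, 107 and 152 in hPGRN cells and at 132, 133, 156 and 141 in control cells. Of the members higher in shPGRN cells it was the one called against both other lines (log2 fold change 0.44, SE 0.10, limma adjusted p = 0.0052 against hPGRN cells, and log2 fold change 0.35, SE 0.10, limma adjusted p = 0.0226 against control cells). Replicate 3 of shPGRN cells was lower than the other 3 and met the control range. The call against control cells was lost without shPGRN replicate 1, 2 or 4 or control replicate 1 or 2 (adjusted p of 0.0525 to 0.0784), and that against hPGRN cells was kept without any single array. Plin2, the perilipin most often used to mark droplets, was at 85.8, 64.6, 97.1 and 89.4 in shPGRN cells, at 98.8, 60.0, 60.5 and 61.3 in hPGRN cells and at 67.5, 10.3, 35.3 and 105 in control cells. Its control arrays spread from 10.3 to 105, and no comparison passed the threshold. Abhd5, the activator of Pnpla2, had a log2 fold change of 0.09 against hPGRN cells (interval -0.09 to 0.28), and Lipe, hormone-sensitive lipase, did not pass the filter.

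The fatty acid binding proteins carry fatty acids through the cytosol. Fabp3, the form of heart that is also made by neurons, was at 30.6, 23.1, 35.5 and 30.1 in shPGRN cells, at 55.4, 81.1, 63.9 and 59.4 in hPGRN cells and at 28.7, 34.6, 56.4 and 47.0 in control cells. shPGRN cells lay below hPGRN cells without overlap (log2 fold change -0.43, SE 0.10, limma adjusted p = 0.00367), with control cells between and overlapping with both. The probe is dim, and the fold change was -0.60 on the log2 scale with an offset of 16 and -1.12 with a floor of 16, both past 1.5-fold (adjusted p of 0.00524 and 0.00571). Fabp5, of skin and brain, lay between 5.60 to 21.2 in shPGRN cells, 2.24 to 18.0 in hPGRN cells and 8.50 to 24.3 in control cells, around the background limit, and Fabp7, of radial glia, did not pass the filter.

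Oxidation gave 1 called member. All 8 genes were tested. In shPGRN against hPGRN cells 1 was higher (12.5%) and none lower, where 6.75% of all tested genes were higher and 7.09% lower. None was called against control cells in either line. At an unadjusted p under 0.05 in limma the counts were 1 higher in shPGRN against hPGRN cells, 1 higher in shPGRN against control cells and none in hPGRN against control cells. The median log2 fold change of the 8 was 0.03 in shPGRN against hPGRN cells, -0.04 in shPGRN against control cells and -0.07 in hPGRN against control cells. Acadvl, the very long-chain acyl-CoA dehydrogenase of the mitochondrial inner membrane, was at 295, 255, 330.3 and 287 in shPGRN cells, at 217, 187, 173 and 232 in hPGRN cells and at 212, 232, 180.1 and 288 in control cells. The first 2 lines did not overlap (log2 fold change 0.41, SE 0.11, limma adjusted p = 0.0126), a second probe was at 0.24 (adjusted p = 0.138), and the call was lost without shPGRN replicate 3 (adjusted p = 0.0503).

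For Acadm, Acadl and Hadhb the intervals limit how large a difference the normalized values leave room for. The probes of Hadha, Cpt1c and Cpt1a are dim, and the offset shrinks their fold changes. Over the alternative fits the log2 fold change in shPGRN against hPGRN cells ran from -0.39 to -0.02 for Hadha. For Cpt1c it ran from -0.47 to -0.06. Acadm, the medium-chain acyl-CoA dehydrogenase, was at 1013, 1074, 1136 and 1041 in shPGRN cells, at 965, 991, 971 and 1009.7 in hPGRN cells and at 1039, 1093, 918 and 1067 in control cells, with an interval of -0.07 to 0.28 for the log2 fold change of the first 2. Cpt2, which returns acyl groups from carnitine to coenzyme A inside mitochondria, was at 364, 358, 340.5 and 349.8 in shPGRN cells, at 303, 309, 305 and 318 in hPGRN cells and at 377, 343, 312 and 303 in control cells. Every shPGRN array of both genes exceeded every hPGRN array, but the log2 fold changes of 0.11 and 0.16 did not pass the threshold. Acadl, the long-chain dehydrogenase, had an interval of -0.22 to 0.17, and Hadhb, the thiolase subunit of the trifunctional protein, of -0.17 to 0.31. Hadha, its hydratase and dehydrogenase subunit, was dim, at 45.1, 7.01, 44.6 and 42.9 in shPGRN cells, 60.0, 49.0, 33.8 and 41.2 in hPGRN cells and 23.0, 40.9, 37.3 and 42.3 in control cells. Cpt1c, the brain form of carnitine palmitoyltransferase 1, was at 9.55 to 48.1 in shPGRN cells, 32.0 to 54.3 in hPGRN cells and 36.8 to 48.5 in control cells. Cpt1a, the rate-limiting step of the shuttle in most tissues, was above background on 1 shPGRN, 1 hPGRN and 3 control arrays and gives almost no information.

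Set side by side, the roles had median log2 fold changes in shPGRN against hPGRN cells of -0.04 for synthesis, -0.29 for desaturation and elongation, -0.35 for activation, -0.09 for glycerolipid assembly, 0.14 for lipolysis and droplets, -0.20 for carriers and 0.03 for oxidation. The members of each role called lower numbered 3 of 9 for desaturation and elongation, 3 of 4 for activation, 3 of 11 for assembly, 1 of 5 for lipolysis and droplets, 1 of 2 for carriers, and none of 4 for synthesis and of 8 for oxidation. Called higher were 2 of 5 for lipolysis and droplets, 1 of 11 for assembly, 1 of 8 for oxidation and none in the other roles. Among all tested genes 7.09% were lower and 6.75% higher. In shPGRN against control cells 6.98% of all tested members were lower, against 6.85% of all tested genes. There the median of activation was -0.41, with 3 of 4 lower, and that of desaturation and elongation -0.17, with none of 9 called. In hPGRN against control cells the same medians were -0.03 and 0.12, and the 2 called members were both of glycerolipid assembly. Whether the roles differ from each other was not tested. The medians of synthesis and carriers rest on 4 and 2 genes. Acaca is missing from synthesis, and Fasn, Fabp5 and Cpt1a lay near background. The offset shrinks the fold changes of dim probes, so a median near 0 does not show that a role with dim probes was unchanged.

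**Figure D4:**
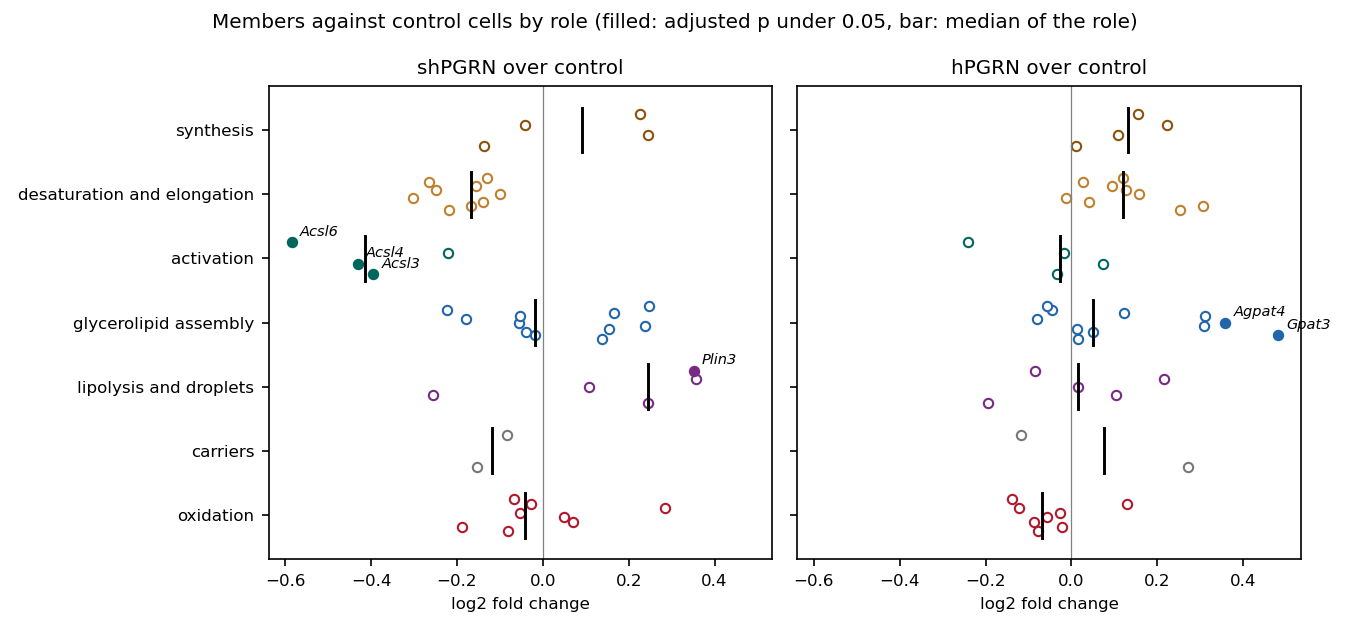
Log2 fold change against control cells (horizontal axis) of the 43 tested members by role, for shPGRN cells at the left and hPGRN cells at the right, with called members filled and named and a bar at the median of each role. Both panels share the 4 control arrays; the acyl-CoA synthetases lie low in shPGRN cells (median -0.41) and near 0 in hPGRN cells (median -0.03).

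Beyond the members, 128 further genes of the same routes and their regulators had a probe, and 87 were tested. In shPGRN against hPGRN cells 10 of the 87 were lower and 4 higher (11.5% and 4.6%), where 7.09% and 6.75% of all tested genes were. In shPGRN against control cells 9 were lower and 4 higher (10.3% and 4.6%, against 6.85% and 7.32% of all genes), and in hPGRN against control cells 3 and 7 (3.45% and 8.05%, against 3.22% and 3.72%). The median over the 87 was -0.01 in the first comparison. By role the lower ones were 3 of 8 in synthesis, 2 of 9 in desaturation and elongation, 3 of 18 regulators, 1 of 8 in assembly, 1 of 9 in lipolysis and droplets and none of 12 in activation, 3 among carriers or 20 in oxidation. The acyl-CoA synthetases of other families and the thioesterases, which made up the further activation genes, gave 2 higher genes and none lower.

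The further genes past 1.5-fold included a source of acetyl-CoA and an electron carrier of the desaturases. Acss2, which makes cytosolic acetyl-CoA from acetate, was at 463, 491, 487 and 515 in shPGRN cells, at 754, 992, 1059 and 1190.0 in hPGRN cells and at 780.3, 679, 646 and 671 in control cells. All shPGRN arrays were lower than those of both other lines, and hPGRN arrays were the highest apart from replicate 1, which lay within the control range (log2 fold change -0.92, SE 0.11, limma adjusted p = 4.5e-06 for shPGRN against hPGRN cells). Cyb5a, cytochrome b5, which passes electrons to the desaturases, was at 547, 600.1, 566 and 587 in shPGRN cells, at 898, 767, 795 and 727 in hPGRN cells and at 958, 966, 1045 and 1024 in control cells. It was lower in shPGRN than in control cells (log2 fold change -0.73, SE 0.09, limma adjusted p = 3.72e-06), in shPGRN than in hPGRN cells (-0.42, adjusted p = 0.00178) and in hPGRN than in control cells (-0.30, adjusted p = 0.0348). Idh1, the cytosolic isocitrate dehydrogenase that supplies NADPH, had the same order, at 909.8, 907, 1043 and 959.7 in shPGRN cells, 1495, 1196, 1209 and 1455 in hPGRN cells and 1715, 1492, 1738 and 1709 in control cells (log2 fold change -0.76, SE 0.10, limma adjusted p = 7.4e-06 for shPGRN against control cells).

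Among the regulators, Insig1, which holds the precursors of the SREBP transcription factors in the endoplasmic reticulum, was at 1249, 1188, 1296 and 1072 in shPGRN cells, at 1794, 1969.8, 2308 and 1636 in hPGRN cells and at 1492, 1394, 1259.8 and 2018 in control cells (log2 fold change -0.64, SE 0.12, limma adjusted p = 0.000882 for shPGRN against hPGRN cells). Srebf1, which encodes the SREBP factor of fatty acid synthesis, averaged 274 ± 42.5 in shPGRN cells, 219 ± 24.2 in hPGRN cells and 228 ± 36.3 in control cells (SD, n = 4 arrays each), and no comparison called it (adjusted p = 0.151 for shPGRN against hPGRN cells, log2 fold change 0.24). Pparg, a nuclear receptor of fat storage, averaged 263 ± 32.9 in shPGRN cells, 328 ± 54.2 in hPGRN cells and 300.3 ± 32.9 in control cells, and it was not called either (adjusted p = 0.127 for the same comparison). Bscl2, seipin of the droplet neck, had the largest change of the 87, at 1089, 925, 1028 and 980.1 in shPGRN cells, 3131, 3277, 3355 and 3260.0 in hPGRN cells and 1882, 1858, 1958 and 1970.5 in control cells (log2 fold change -1.63, SE 0.08, limma adjusted p = 6.8e-12 for shPGRN against hPGRN cells), with no overlap between any of the lines.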

How the data were processed

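The authors deposited a linear table of probe intensity values on 12 arrays, alike in distribution. On each array 31.7% to 31.8% of the values were below 0, and the table was taken to be background-subtracted. The paper names lumi normalization, and no source used here says how the table itself was made. A second table of 24 columns, whose names match no sample, was not used. Deposited intensities were corrected with normexp (offset 50), quantile normalized and put on a log2 scale in limma 3.58.1 (R 4.3.3), so that an intensity of 0 becomes 72.2. A probe was kept when above background (p under 0.05) on at least 4 arrays, 63 of the 87 member probes. The kept probe with the highest mean stood for its gene. limma was fitted to all 12 arrays with 1 mean per line and Benjamini-Hochberg adjustment over 11278 genes. The number of arrays limits the precision. The members and gene lists were chosen with earlier results of these data known. The naming rule gives array values to members called past 1.5-fold, and as none was, those of the called members and of others of their families are given, chosen after their values were seen. The steps were tested on simulated data. Same-numbered arrays of different lines were not alike (correlations of -0.158 to 0.127 over 12 pairs).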

Additional observations from a re-analysis of the deposited data

Results flagged for a closer look

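A line's 4 arrays were examined for 1 array far from the rest in the 43 tested members and Grn, 132 sets of 4 in all. In 8 of these (6.06%) the gap of the outermost array was over Dixon's 95% critical value as a share of the range, where chance gives about 1 in 20. In shPGRN cells Elovl6 replicate 3 was at 709, above the 535 to 546 of the others, and without it Elovl6 stayed lower than in hPGRN cells. Dgat2 replicate 3 was at 418, above 371 to 377, and the Dgat2 call was lost without it. Elovl1 replicate 2 was at 801, above 597 to 631. Hadha replicate 2 was at 7.01, below 42.9 to 45.1. In hPGRN cells Acsl3 replicate 1 was at 537, below 669 to 673. Dgat1 replicate 1 was at 71.0, above 54.6 to 56.3, and Plin2 replicate 1 at 98.8, above 60.0 to 61.3. Pnpla2 replicate 4 was at 1561, below 1628 to 1638.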

How the results depend on the processing

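Over 21 alternatives a comparison, no called member and no Grn value changed sign, and 71 of 441 values of called members lost their call. In shPGRN against hPGRN cells 8 of 15 calls held in all (Scd1, Elovl6, Acsl4, Gpat3, Agpat4, Pnpla2, Plin3 and Fabp3), in shPGRN against control cells Acsl6 of 4, and in hPGRN against control cells Gpat3 of 2. Acsl4 lost its call against control cells when the kept probes, the dim ones among them, were averaged (-0.20, adjusted p = 0.135). Acsl6 then kept its call at a smaller log2 fold change of -0.27 (adjusted p = 0.0202). Members higher in shPGRN against hPGRN cells numbered 2 without variance moderation. Those past 1.5-fold were 2 with an offset of 16 and 5 with a floor of 16. Against control cells shPGRN cells had 6 members lower with a trended, robust variance, and 2 higher with averaged probes or array weights and 0 higher without moderation. Past 1.5-fold there was 1 with an offset of 16, a floor of 16 or array weights. In hPGRN against control cells 1 member was higher with an offset of 16, a floor of 16, no filter, only the 8 arrays compared or no moderation. With every kept probe tested, 1 was higher when read on the probe with the highest mean of each gene. The second Lpin1 probe was also called in that fit (0.49, limma adjusted p = 0.0313). With an offset or a floor of 16, 1 member was past 1.5-fold. The cause of these shifts in the counts was not tested.

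Leaving out 1 array gave 8 to 10 lower and 2 to 4 higher members in shPGRN against hPGRN cells, with 0 to 1 past 1.5-fold, 2 to 4 lower, 0 to 3 higher and 0 to 1 past 1.5-fold in shPGRN against control cells, and 1 to 4 higher in hPGRN against control cells. Leaving out shPGRN replicate 2 and control replicate 4, the arrays of lowest weight (0.584 and 0.575), was added after seeing the data and gave 10 lower and 4 higher members in shPGRN against hPGRN cells, and 3 lower, 2 higher and 2 past 1.5-fold (Acsl6 and Plin2) in shPGRN against control cells. With the replicate number as a block all counts of members stayed as they were, 11 lower and 4 higher, 3 lower and 1 higher, and 0 lower and 2 higher in the 3 comparisons, and the numbers were not taken as pairs.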
